A study of Mus musculus with 8 samples.

Results

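Autophagy is the route by which a cell wraps part of its own cytoplasm in a double membrane, the autophagosome, and delivers it to the lysosome for degradation. A set of 40 genes of this route was followed in R1 mouse embryonic stem cells after knockdown of Mkrn1. The set holds the core autophagosome machinery and the cargo receptors. Its members were chosen by name, with earlier results of these arrays known. Of the 40, 39 had a probe set with exactly 1 gene symbol in the platform annotation, among 19937 such genes on the array. Optn, which encodes the receptor optineurin, was not analysed here.

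R1 is a male embryonic stem cell line derived from the inner cell mass of a blastocyst of 129X1 x 129S1 background. The culture medium, on gelatinized plates, held LIF and 15% FBS. At 48 h after seeding the cells received 2 µg of a pLKO.1 plasmid, then 4 days of puromycin at 2 µg/mL, and RNA was taken on day 6 after transfection. The control group of 4 arrays carried a plasmid with a hairpin against GFP (shGFP, arrays 1, 3, 5 and 7). The other group of 4 arrays carried a hairpin against MKRN1 (shMKRN1, arrays 2, 4, 6 and 8), an E3 ubiquitin ligase that also binds RNA. Transfection was transient, each group rests on 1 hairpin, and nothing in the labels ties the 4 samples of either group to separate transfections. The p-values therefore rest on the spread among these samples, part or all of which may be technical. The hairpin against MKRN1 is shown because the whole comparison turns on it. Its 21 bases are

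shMKRN1: gcgagatgttgcttatgcttt

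Autophagosomes form in steps that fall to separate protein groups. The ULK kinase complex starts the process when nutrients or energy run low: AMPK, a reported target of MKRN1, activates it and mTORC1 holds it back. A lipid kinase complex built on beclin 1 then marks the growing membrane with phosphatidylinositol 3-phosphate, ATG9 and ATG2 supply it with lipid, and a pair of linked ubiquitin-like conjugation systems attach ATG8 proteins to it. Cargo receptors bind ATG8 proteins on 1 side and ubiquitin or an organelle on the other.

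Mkrn1 itself was lower in every shMKRN1 array. Its log2 level was 10.45, 10.45, 10.51 and 10.34 in shGFP 1, 3, 5 and 7 and 9.81, 9.81, 9.86 and 9.88 in shMKRN1 2, 4, 6 and 8. The change of -0.60 (SE 0.052; limma adjusted p = 0.000767; exact two-sided permutation p = 0.0286, the smallest that 70 assignments allow) left 66.2% of the control level. The array medians ranged from 7.143 to 7.237. On the leading principal component over all genes, shGFP 7 scored 23.2 where the remaining controls scored -3.45 to 6.2, and shMKRN1 8 scored 7.46 where the remaining knockdown arrays scored -15.2 to -6.02, so counts are also given without these arrays. All 10 stem cell markers examined, Pou5f1 and Sox2 among them, lay above the median level of all genes, as did 3 of 10 fibroblast markers and 4 of 8 primitive endoderm markers. All 39 autophagy genes lay above a log2 level of 6.5, under which 95% of 1190 olfactory and vomeronasal receptor genes lay, taken here as silent genes. So did 14012 of the 19937 genes.

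Of the 39 autophagy genes, 4 rose in shMKRN1 and none fell. Those that rose were Uvrag and Becn1, subunits of the lipid kinase complexes, Atg4d, a protease acting on ATG8 proteins, and Pink1, the kinase that marks damaged mitochondria. The changes were small, from 1.14-fold to 1.3-fold. A gene counts as risen or fallen at a limma p under 0.05 after Benjamini-Hochberg adjustment over all 19937 genes. By that rule 4.49% of all genes passed, 3.66% by rising and 0.838% by falling, against 10.3% of the autophagy genes that rose. Of the autophagy genes, 34 lay above the median level of all genes, and 5.48% of all genes above that level rose. At an unadjusted p under 0.05, 11 autophagy genes were higher and 1 lower, where 13.7% and 5.78% of all genes were. The levels of the groups did not overlap for 8 genes that were higher (20.5%, against 10.6% of all genes) and for 1 that was lower (3.51% of all genes). The median log2 change was 0.076, beside 0.0077 for all genes, and 28 of the 39 had a positive change (71.8%, against 52.8% of all genes). These shares describe the list and carry no test.

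**Figure D1:**
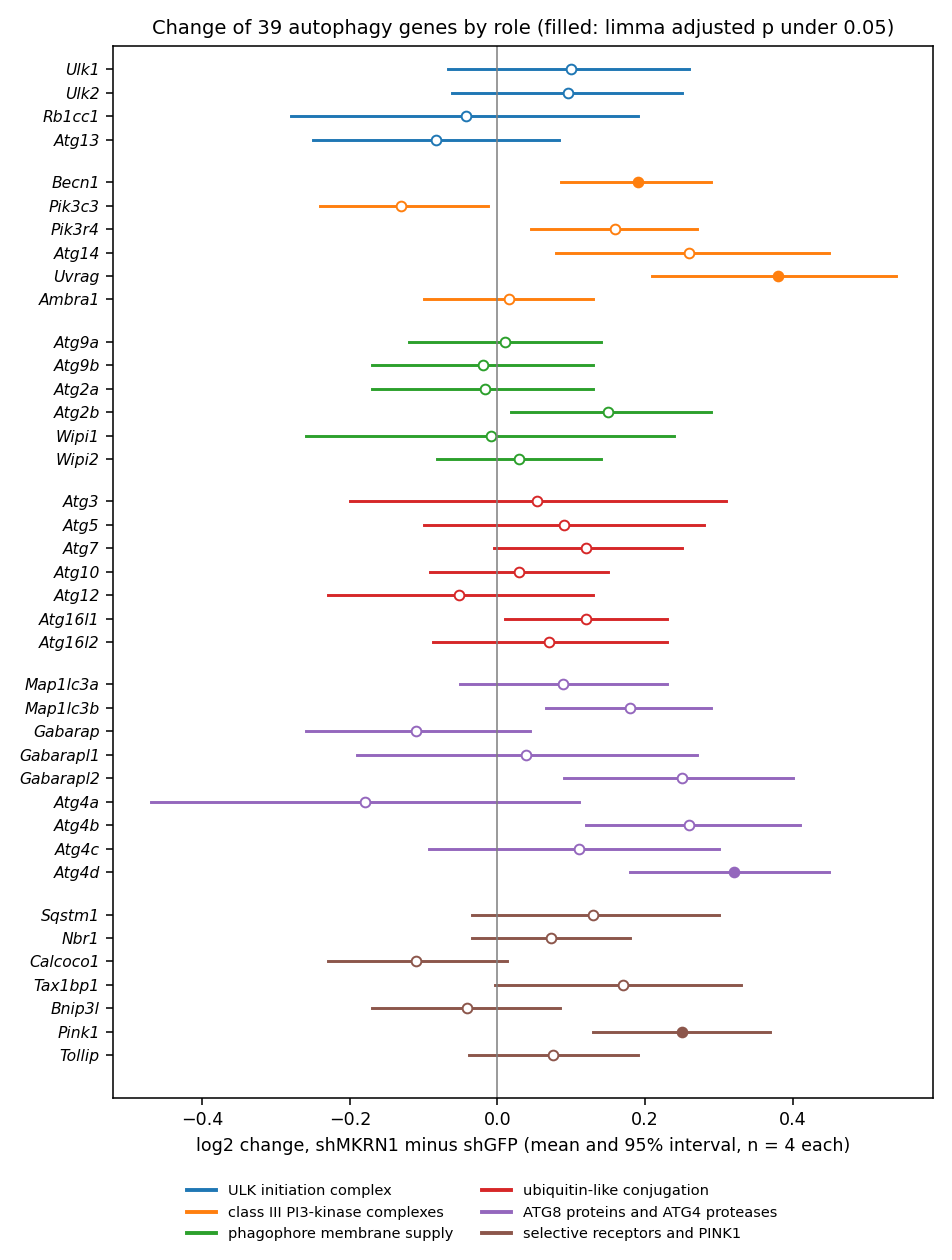
Log2 change between shMKRN1 and shGFP (x axis) of each of the 39 measured autophagy genes (y axis), coloured by role, as the mean difference with its 95% confidence interval from limma over 4 arrays a group. Filled points mark the 4 genes past the adjusted threshold, Uvrag, Becn1, Atg4d and Pink1, all to the right of 0. The intervals of most other genes cross 0.

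The calls depended on single arrays more than the changes did. With shGFP 3, shMKRN1 2, shMKRN1 4 or shMKRN1 6 left out, none of the 39 passed limma (9 to 11 were higher at an unadjusted p under 0.05), and the share of all genes that rose was then 1.28% to 1.55%. The change of Uvrag meanwhile stayed between 0.31 and 0.42 across all settings, and that of Becn1 between 0.15 and 0.21. With shGFP 5 left out, 2 passed, where 3.11% of all genes rose. With shGFP 7 and shMKRN1 8 left out together, 4 passed, Atg4b taking the place of Becn1, where 3.55% of all genes rose. With p-values adjusted over every probe set, none passed (Uvrag 0.0621, Atg4d 0.0534, Pink1 0.0614, Becn1 0.0841), with 11 higher at an unadjusted p under 0.05. By that adjustment 1.61% of all genes rose.

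The lipid kinase complexes held Uvrag, the gene with the largest change of the 39, and Becn1. Of 6 genes, 2 rose (33.3%, against 3.66% of all genes), 3 were higher without overlap (10.6% of all genes) and 1, Pik3c3, was lower without overlap (3.51% of all genes). The median change was 0.17, beside 0.0077 for all genes. Pik3c3 encodes the catalytic subunit VPS34 and Pik3r4 its partner VPS15. Beclin 1 joins them, and either ATG14 or UVRAG completes the complex: the form with ATG14 acts where autophagosomes start, the form with UVRAG on endosomes and in later steps.

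Uvrag had log2 levels of 8.81, 8.71, 8.73 and 8.49 in shGFP 1, 3, 5 and 7 and of 9.11, 9.09, 9.11 and 8.93 in shMKRN1 2, 4, 6 and 8. The groups did not overlap, and shGFP 7 and shMKRN1 8 were the lowest of their groups. Uvrag rose 1.3-fold (95% interval 1.15 to 1.46), from 8.68 ± 0.13 to 9.06 ± 0.09 (SD, n = 4 each), a change of 0.38 with limma adjusted p = 0.0241. It kept its call without each of 4 of the 8 arrays and lost it without shGFP 3 or shMKRN1 2, 4 or 6, at adjusted p-values up to 0.0838.

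Becn1, the gene of beclin 1, varied least between arrays among the genes that rose. Its levels were 8.82, 8.76, 8.77 and 8.81 in shGFP 1, 3, 5 and 7 and 8.98, 8.96, 9.01 and 8.96 in shMKRN1 2, 4, 6 and 8. All 4 shMKRN1 arrays lay above every shGFP array, with SDs of 0.029 and 0.021. The change was 0.19 (SE 0.045; limma adjusted p = 0.0463), or 1.14-fold. That call was lost without any 1 of the 8 arrays (adjusted p from 0.0559 to 0.153), and with quantile normalization (0.098).

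Atg14 had levels of 9.66, 9.55, 9.53 and 9.28 in shGFP 1, 3, 5 and 7 and of 9.81, 9.84, 9.78 and 9.64 in shMKRN1 2, 4, 6 and 8. Only shMKRN1 8 fell inside the range of the controls. The change of 0.26 (SE 0.083; limma adjusted p = 0.108) did not pass. Pik3r4 stood at 9.22, 9.24, 9.20 and 9.09 in shGFP and at 9.35, 9.31, 9.38 and 9.34 in shMKRN1, in the same array order. Its groups did not overlap, and its change of 0.16 (SE 0.051) had an adjusted p of 0.116 by limma. Pik3c3, singled out after its values were seen, ran the other way without overlap, with 9.09, 9.21, 9.19 and 9.08 in shGFP and 9.04, 9.03, 8.98 and 9.01 in shMKRN1. That difference of -0.13 (SE 0.051; limma adjusted p = 0.202) did not pass either. Ambra1, which encodes a beclin 1 binding protein, changed by 0.016, with a 95% interval from -0.10 to 0.13.

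**Figure D2:**
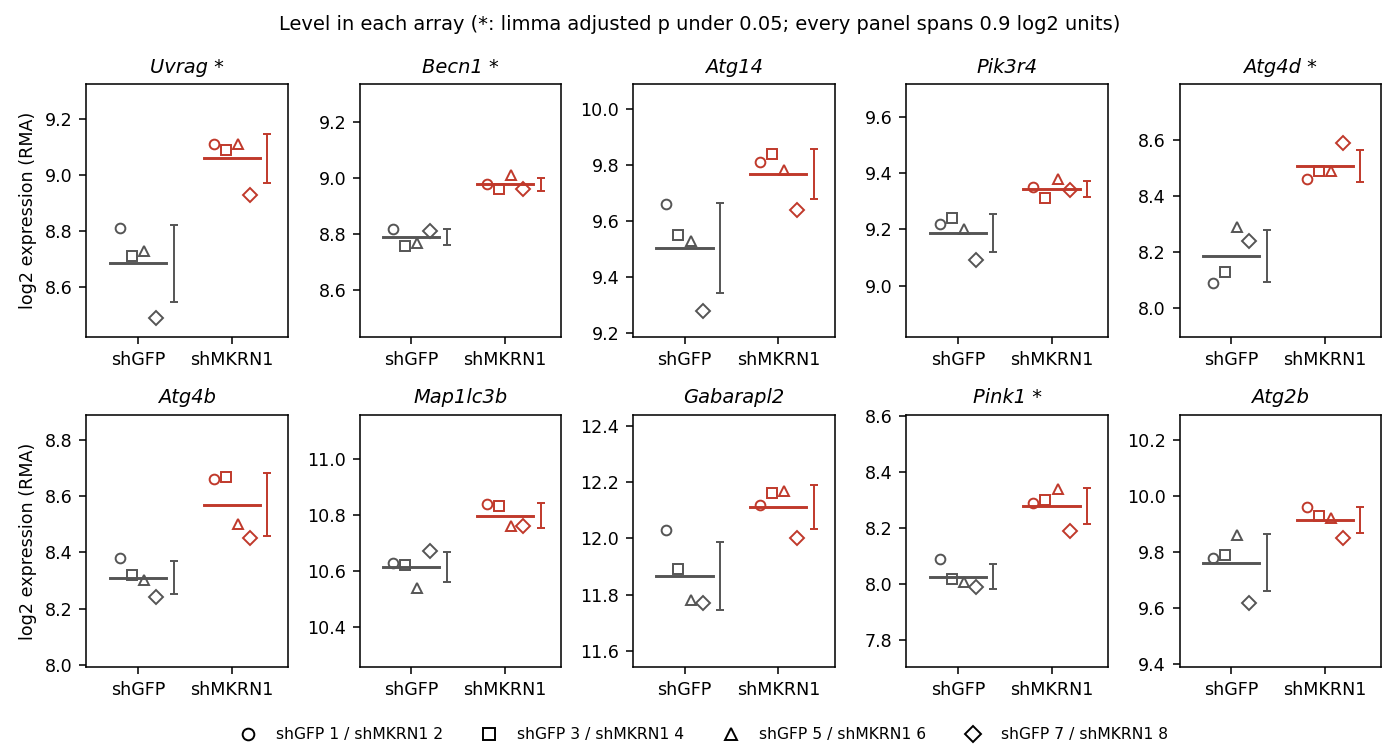
Log2 expression (y axis) of 10 autophagy genes in each of the 4 shGFP arrays (grey) and the 4 shMKRN1 arrays (red), with the group mean as a line and the SD as a bar. Marker shapes name the arrays and imply no pairing. In Uvrag, Becn1, Pik3r4, Atg4d, Atg4b, Map1lc3b and Pink1 the groups do not overlap, while in Atg14, Gabarapl2 and Atg2b 1 array or more lies inside the other group's range.

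ATG8 proteins are small ubiquitin-like proteins that are joined to the lipid of the autophagosome membrane. ATG4 proteases trim their precursors before that step and free them from the membrane after it. Of 9 genes of these families, Atg4d rose (11.1%, against 3.66% of all genes) and 3 were higher without overlap (10.6% of all genes). The median change was 0.11.

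Atg4d had levels of 8.09, 8.13, 8.29 and 8.24 in shGFP 1, 3, 5 and 7 and of 8.46, 8.49, 8.49 and 8.59 in shMKRN1 2, 4, 6 and 8. Unlike Uvrag, its highest array was shMKRN1 8 and its lowest shGFP 1. It rose 1.25-fold (95% interval 1.13 to 1.37), a change of 0.32 (SE 0.061; limma adjusted p = 0.0204). Its call was lost without shGFP 1, shGFP 3 or shMKRN1 2, 4 or 6 (adjusted p up to 0.0756).

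Atg4b encodes the main protease of the family. Its levels were 8.38, 8.32, 8.30 and 8.24 in shGFP 1, 3, 5 and 7 and 8.66, 8.67, 8.50 and 8.45 in shMKRN1 2, 4, 6 and 8, without overlap. The change of 0.26 (SE 0.065) missed the threshold at a limma adjusted p of 0.0537. It passed under 7 of the 9 other settings that did not remove a single array, at adjusted p-values from 0.0156. Of the 8 fits without 1 array, it passed only in the fit without shMKRN1 8 (limma adjusted p up to 0.145 in the others). The other 2 proteases differed in sign and did not pass, Atg4c at 0.11 (95% interval -0.093 to 0.30) and Atg4a at -0.18 (-0.47 to 0.11). The second probe set of Atg4a changed by 0.078, opposite to the one kept.

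Among the ATG8 genes, Map1lc3b, which encodes LC3B, had levels of 10.63, 10.62, 10.54 and 10.67 in shGFP 1, 3, 5 and 7 and of 10.84, 10.83, 10.76 and 10.76 in shMKRN1 2, 4, 6 and 8. The groups did not overlap. The change of 0.18 (SE 0.05; limma adjusted p = 0.0793) did not pass, and the second probe set of the gene changed by 0.28 (SE 0.1). Gabarapl2, which encodes GATE-16, had levels of 12.03, 11.89, 11.78 and 11.77 in shGFP and of 12.12, 12.16, 12.17 and 12.00 in shMKRN1. The array shMKRN1 8 lay below shGFP 1, and the change of 0.25 (SE 0.07) had a limma adjusted p of 0.0806. The second probe set of Gabarapl2, under the level of 6.5 (5.85 in shGFP, 6.04 in shMKRN1), changed by 0.19 (SE 0.14). The mean of both changed by 0.22 (limma adjusted p = 0.191). The other ATG8 genes showed smaller differences. Map1lc3a changed by 0.089 (95% interval -0.051 to 0.23) and Gabarapl1 by 0.039 (-0.19 to 0.27). Gabarap changed by -0.11 (-0.26 to 0.044), with all 4 shMKRN1 arrays under the shGFP mean.

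With Atg4b, Map1lc3b and Gabarapl2 counted, 7 of the 39 genes had an adjusted p under 0.1, all higher in shMKRN1 (6.52% of all genes were higher and 1.92% lower by that rule). All 7 belong to the lipid kinase complexes, the ATG8 and ATG4 genes, or are Pink1. Whether these roles differ from the other roles was not tested.

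Receptors and PINK1 link cargo to the membrane. PINK1 builds up on mitochondria that have lost their membrane potential and phosphorylates ubiquitin there, which recruits receptors. Of the 7 genes, Pink1 rose (14.3%, against 3.66% of all genes). Pink1 had levels of 8.09, 8.02, 8.01 and 7.99 in shGFP 1, 3, 5 and 7 and of 8.29, 8.30, 8.34 and 8.19 in shMKRN1 2, 4, 6 and 8, without overlap. It rose 1.19-fold (95% interval 1.1 to 1.29), a change of 0.25 (SE 0.052; limma adjusted p = 0.0273). The call was lost without shGFP 3, shGFP 5 or shMKRN1 2, 4 or 6, with adjusted p-values up to 0.101.

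None of the 6 measured receptors passed limma, and none had an unadjusted p under 0.05. Sqstm1 encodes p62, the best known ubiquitin-binding receptor and itself an autophagy substrate, and its transcript changed by 0.13 (95% interval -0.035 to 0.30). Tax1bp1 changed by 0.17 (-0.0037 to 0.33) and Nbr1 by 0.073 (-0.035 to 0.18), both also ubiquitin-binding receptors. Tollip, an adapter with a ubiquitin-binding domain, changed by 0.076 (-0.039 to 0.19). Calcoco1, a receptor for endoplasmic reticulum, changed by -0.11 (-0.23 to 0.013), and Bnip3l, which encodes the mitophagy receptor NIX, by -0.041 (-0.17 to 0.085). The second probe set of Bnip3l changed by -0.29 (SE 0.14; limma unadjusted p = 0.07), from 12.26 to 11.97, and the mean of both by -0.17.

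Initiation, membrane supply and conjugation showed no gene past the limma threshold (at an unadjusted p under 0.05, Atg2b and Atg16l1). In the ULK complex the kinase genes Ulk1 and Ulk2 changed by 0.10 and 0.095, and Rb1cc1 (the scaffold FIP200) and Atg13 by -0.042 and -0.083. Their limma adjusted p-values lay between 0.525 and 0.878, and the groups overlapped for all 4 genes (none had an unadjusted p under 0.05). Among the 6 membrane supply genes the lipid transfer gene Atg2b differed most. Its levels were 9.78, 9.79, 9.86 and 9.62 in shGFP 1, 3, 5 and 7 and 9.96, 9.93, 9.92 and 9.85 in shMKRN1 2, 4, 6 and 8, so shMKRN1 8 lay just under shGFP 5. The change of 0.15 (SE 0.061; limma adjusted p = 0.195) did not pass, and its second probe set changed by 0.18 (SE 0.047). The paralogue Atg2a changed by -0.017, the scramblase genes Atg9a and Atg9b by 0.01 and -0.02, and Wipi1 and Wipi2, whose products read phosphatidylinositol 3-phosphate, by -0.0085 and 0.029.

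Of the 7 conjugation genes, Atg16l1 had groups without overlap (shGFP 9.44 to 9.57, shMKRN1 9.59 to 9.65) at a change of 0.12 (SE 0.049; limma adjusted p = 0.213). Atg16l1 encodes the protein that brings the conjugation enzymes to the membrane. Atg7, the activating enzyme of both conjugation systems, also changed by 0.12 (95% interval -0.0044 to 0.25). The conjugating enzymes Atg3 and Atg10 changed by 0.053 and 0.029, Atg5 by 0.09, Atg12, whose product is joined to ATG5, by -0.052, and Atg16l2 by 0.07.

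The precision of these arrays limits what the genes that did not pass can show. For the 35 of them, the 95% intervals reached from -0.47 (Atg4a) to 0.45 (Atg14), and for 27 the whole interval lay between -0.3 and 0.3. A missed threshold does not show that a transcript kept its level.

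Within a group, many autophagy genes deviated in the same direction in the same array. Relative to each gene's shGFP mean, 36 of the 39 genes lay higher in shGFP 1 (41.9% of all genes) and 7 in shGFP 7 (53.6% of all genes). The median deviations of the 39 genes were 0.075 and -0.08. In shMKRN1 2, 4 and 6 the medians were 0.13, 0.10 and 0.081, and in shMKRN1 8 the median was 0.0086. So the median shift of the list between the groups was about as large as the distance of shGFP 1 from its own group. Of the 39 genes, 26 had their lowest shGFP level in shGFP 7 and 28 their lowest shMKRN1 level in shMKRN1 8, the arrays that stood apart on the leading component. The matching counts over all genes are not given here, so these counts describe the list only. The median deviation of all genes stayed between -0.018 and 0.04 in the 8 arrays. The part of array quality in these shifts was not tested. Without shGFP 7 and shMKRN1 8 the median change of the list was 0.079.

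**Figure D3:**
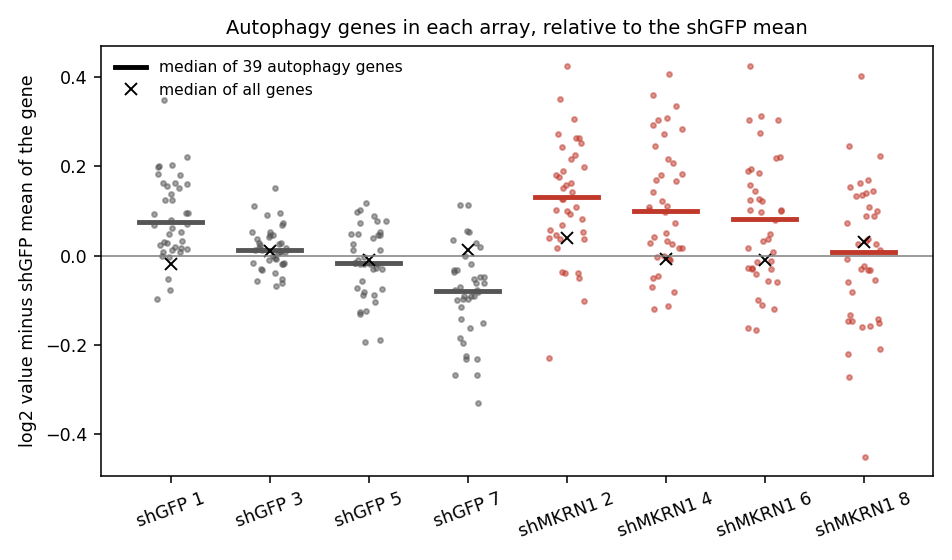
Log2 value minus the shGFP mean of the gene (y axis) for each of the 39 autophagy genes in each array (x axis). Thick lines are medians of the 39 genes and crosses medians of all 19937 genes. The line of shGFP 1 (0.075) lies near those of shMKRN1 2, 4 and 6 (0.13, 0.10 and 0.081), and the line of shMKRN1 8 (0.0086) lies near 0.

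Transcripts of other cell types were examined in the same arrays, because in bulk RNA a smaller share of cells of a type and less RNA per cell cannot be told apart. Of 10 fibroblast markers, 2 rose (20%, against 3.66% of all genes), Pdgfrb (0.35) and Col1a1 (0.37), and none fell. In this list 9 changes were positive, with a median of 0.10, and the mean log2 level of the list ranged from 7.001 to 7.117 in shGFP arrays and from 7.117 to 7.277 in shMKRN1 arrays. Above the level of the silent genes lay 9 of the 10, Col1a1 (8.33 and 8.70) and Thy1 (8.25 and 8.39) among them, and under it Lum (3.80 and 3.78). Of 8 primitive endoderm markers, all above that level, none passed limma (1 higher and 1 lower at an unadjusted p under 0.05), with ranges of 7.735 to 7.970 and 7.737 to 7.933. Of 10 stem cell markers, Nanog rose by 0.25 (1 gene, 10%, against 3.66% of all genes) and none fell. In this list 4 changes were positive and 6 negative, with a median of -0.0054. At a limma unadjusted p under 0.05, 2 stem cell markers were higher and 1 lower. The ranges were 11.501 to 11.562 and 11.523 to 11.578. Pdgfrb and Col1a1 each kept their call without 1 array only for shGFP 7, and Nanog lost its call without shGFP 3 or shMKRN1 2, 4 or 6 (adjusted p up to 0.0974). The part of such cells in the autophagy changes was not tested.

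The promoters of Uvrag, Atg4d and Pink1 are shown because these genes rose; Becn1 was not matched. RefSeq promoter sequences (GRCm38.p6) were matched for 32 of the 39 genes, in 36 windows that run from 250 bases before to 50 bases after a start site. The lines give the 250 bases before the start, 5′ to 3′ on the strand of the gene, for Uvrag at chr7:99141145-99141394 (minus strand), Atg4d at chr9:21265035-21265284 (plus strand) and Pink1 at chr4:138326297-138326546 (minus strand). Capitals mark CCAAT or its reverse complement, the letters of the CCAAT box.

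Uvrag: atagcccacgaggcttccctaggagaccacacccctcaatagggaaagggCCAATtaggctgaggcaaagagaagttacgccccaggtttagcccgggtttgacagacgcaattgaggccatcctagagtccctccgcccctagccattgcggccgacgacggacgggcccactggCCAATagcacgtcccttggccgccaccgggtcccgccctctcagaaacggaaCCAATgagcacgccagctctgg
Atg4d: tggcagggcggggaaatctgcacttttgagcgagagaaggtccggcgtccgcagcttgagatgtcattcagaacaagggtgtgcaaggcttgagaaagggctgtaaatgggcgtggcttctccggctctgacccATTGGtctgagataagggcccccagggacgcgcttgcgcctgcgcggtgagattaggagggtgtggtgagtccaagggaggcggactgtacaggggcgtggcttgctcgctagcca
Pink1: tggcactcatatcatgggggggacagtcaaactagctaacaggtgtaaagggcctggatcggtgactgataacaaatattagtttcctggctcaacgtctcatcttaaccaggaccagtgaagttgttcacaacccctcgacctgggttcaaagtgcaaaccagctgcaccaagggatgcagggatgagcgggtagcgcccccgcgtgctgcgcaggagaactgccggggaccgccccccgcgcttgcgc

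Uvrag held 3 matches, Atg4d 1 and Pink1 none. Across the autophagy genes 10 of 36 windows (27.8%) held CCAAT on either strand, against 37.4% of 32851 promoter windows of the same length. The letters GTAAACA, which FOXO factors bind, and TGATGNAA, which ATF4 binds with C/EBP proteins, were in none of the 36 windows (3.65% and 3.97% of all windows), searched on both strands. CACGTG, the E-box core that TFEB and TFE3 bind in genes of lysosomes and autophagy, was in 4 windows (11.1%, against 7.15% of all windows), those of Atg14, Atg7, Atg5 and Atg3. Their surroundings are printed to show the shared core, in capitals, on the strand of the gene, at chr14:47568418-47568447 (minus), chr6:114670952-114670981 (plus), chr10:44268313-44268342 (plus) and chr16:45158723-45158752 (plus, the first of 2 in Atg3).

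Atg14: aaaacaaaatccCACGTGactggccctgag
Atg7: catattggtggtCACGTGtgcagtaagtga
Atg5: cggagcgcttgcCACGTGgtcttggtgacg
Atg3: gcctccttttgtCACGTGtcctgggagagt

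None of these 4 genes passed the test, with changes of 0.26, 0.12, 0.09 and 0.053 in that order. A match is a description of letters, and binding was not measured.

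Genes around the core machinery were tested in lists of their own, and few passed in each. Of 21 other autophagosome factors 1 rose (4.76%, against 3.66% of all genes) and 1 fell (0.838% of all genes). Wdr45, whose product reads phosphatidylinositol 3-phosphate, rose by 0.25 (SE 0.048; limma adjusted p = 0.0212). Plekhm1, whose product tethers autophagosomes to lysosomes, fell by 0.24 (SE 0.057; adjusted p = 0.046 by limma), and the median of the list was 0.028. Plekhm1 lost its call without any 1 array (adjusted p up to 0.138) and Wdr45, at adjusted p-values up to 0.0809, without any 1 of shGFP 3, shMKRN1 2, shMKRN1 4 and shMKRN1 6. Of 17 further selective receptors and mitophagy genes, 2 rose (11.8%, against 3.66% of all genes) and none fell. These were Ccpg1, a receptor for endoplasmic reticulum (0.30, SE 0.056; limma adjusted p = 0.017), and Bcl2l13, a mitochondrial outer membrane receptor (0.27, SE 0.058; adjusted p = 0.0294). Ccpg1 kept its call without each of 6 of the 8 arrays (lost without shMKRN1 4 or 6, up to 0.0659), and Bcl2l13 without each of 2 (shGFP 5 or shMKRN1 8).

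Upstream of the ULK complex, 1 of 14 AMPK genes rose (7.14%, against 3.66% of all genes). This was Prkag1, a regulatory subunit gene, at 0.21 (SE 0.05; limma adjusted p = 0.0428), a call that remained without 1 array only for shMKRN1 8. The catalytic subunit gene Prkaa1 changed by -0.045. Of 22 genes of mTORC1 and its regulators 1 rose (4.55%). This was Ddit4, whose product inhibits mTORC1, which rose by 0.63 and kept its call without each array in turn (adjusted p up to 0.00533). The kinase gene Mtor changed by 0.12 (limma unadjusted p = 0.0319) and did not pass. Of 8 transcription factors that act on autophagy or lysosome genes 1 rose (12.5%), Atf4, by 0.31 (SE 0.054; limma adjusted p = 0.0134, lost only without shMKRN1 6 at 0.0551). At a limma unadjusted p under 0.05, 1 gene of this list was higher and 1 lower, where 13.7% and 5.78% of all genes were. The lower gene was Foxo1, which changed by -0.14 without overlap (3.51% of all genes) and did not pass (limma adjusted p = 0.15). Tfeb changed by 0.0069 and Tfe3 by -0.075, neither past the threshold.

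Of 30 measured lysosome genes, 5 rose (16.7%, beside 3.66% of all genes) and none fell, with a median change of 0.084. They were the protease genes Ctsz (0.32) and Ctsl (0.26), the glycosidase gene Hexa (0.36), the acid lipase gene Lipa (0.33) and the cholesterol carrier gene Npc2 (0.19), at limma adjusted p-values from 0.0182 to 0.0463. Each lost its call without at least 1 array. Ctsz lost it without shGFP 1, shGFP 3, shMKRN1 2 or shMKRN1 6, and Hexa without shGFP 3 or shMKRN1 2, 4 or 6. Lipa lost it in all but 2 of the 8 fits and Npc2 in all 8. Ctsl kept its call only without shMKRN1 8 and, at a limma adjusted p that rounds to 0.05, without shGFP 7. Of the 30 changes, 24 were positive and 6 negative (80% positive, against 52.8% of all genes). At a limma unadjusted p under 0.05, 10 of the 30 genes were higher and 1 lower, where 13.7% and 5.78% of all genes were. The lower gene was the lysosome membrane gene Lamp2, which changed by -0.26 (limma unadjusted p = 0.0329) and did not pass. Earlier results of these arrays were known when the lists were chosen, so their counts are no independent evidence.

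**Figure D4:**
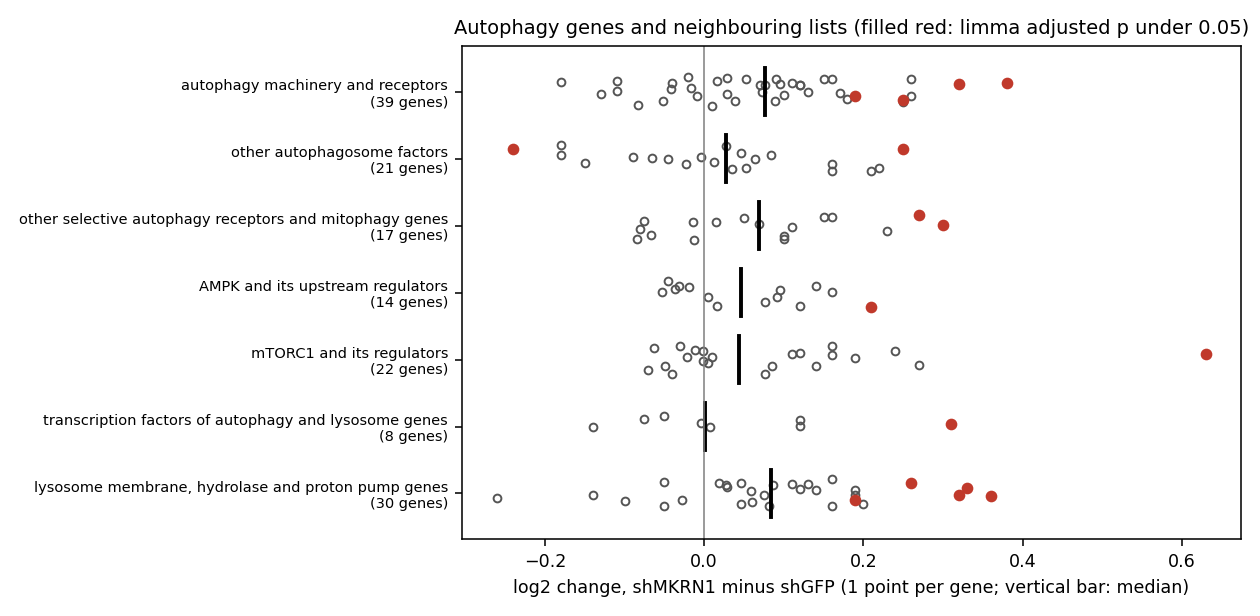
Log2 change between shMKRN1 and shGFP (x axis) of each gene, 1 point a gene, for the 39 autophagy genes and 6 neighbouring lists (y axis), with list medians as bars. Red points passed limma at an adjusted p of 0.05: 4 autophagy genes and 5 lysosome genes, all to the right of 0, with Ddit4 at 0.63 farthest out and Plekhm1 at -0.24 as the 1 gene to the left.

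**Figure D5:**
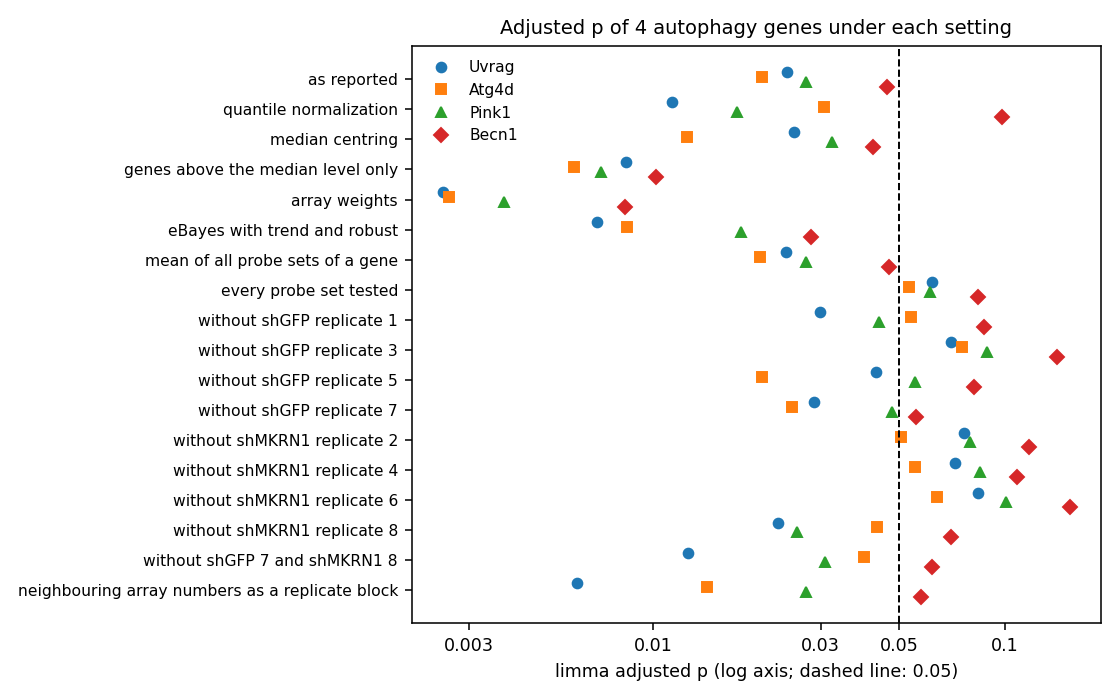
Limma adjusted p (x axis, log scale, dashed line at 0.05) of Uvrag, Atg4d, Pink1 and Becn1 under each processing setting (y axis). No gene lies left of the line without shGFP 3 or shMKRN1 2, 4 or 6, or with every probe set tested. In the last of these Atg4d is nearest to the line, at 0.0534.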

How the data were processed

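The deposited table holds log2 expression for 34760 probe sets on 8 arrays, and the submitters' processing notes name RMA as the method. Its version and a genome build are not given in the sources used here. It corrects background, brings arrays to a common distribution and summarises probes, so a shift of most genes alike cannot be seen and changes of dim genes are understated. The number of arrays limits the precision. Samples were grouped by the hairpin in their titles. The platform annotation gave 1 symbol for 21640 probe sets, several for 1321 and none for 11799. The probe set with the highest mean was kept per symbol (954 genes had several), which left 19937 genes. Differences were fitted with limma 3.58.1 in R 4.3.3 (lmFit and eBayes, 6 residual and 4 prior degrees of freedom, no filter, no covariate), two-sided, adjusted by Benjamini-Hochberg over all genes at 0.05, and checked on simulated arrays. In the simulated arrays 200 of the 19937 genes were changed, with noise drawn separately for each gene and array. There, 16.4% of the genes changed 1.2-fold were recovered and 92.5% of those changed 1.5-fold. These shares hold for that setting, and recovery in the real arrays was not measured. Intervals are at 95%.

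The members and all lists were chosen with earlier results of these data known. All members are named. Of each neighbouring list, genes past the threshold are named, up to 6 by smallest p. Others (Mtor, Prkaa1, Foxo1, Tfeb, Tfe3, Lamp2, Lum, Thy1, Pou5f1, Sox2) were chosen after their values were seen. Array levels are given for members past the threshold and the 6 next by p. Quantile normalization, median centring, a filter on level, array weights, eBayes with trend and robust settings, the mean of probe sets, adjustment over every probe set, leaving out arrays and, added after seeing the data, a block of neighbouring array numbers were tried.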

Additional observations from a re-analysis of the deposited data

Results flagged for a closer look

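In groups of 4 arrays, 6 of 110 groups (55 genes) held an array whose gap to the nearest other array took up a larger part of the range of the group than Dixon's 95% critical value. About 1 in 20 groups would be flagged by chance if the groups were independent, but all genes share the same 8 arrays. Whether 6 of 110 differs from chance was not tested. The flags of Uvrag, Nbr1, Tax1bp1 and Ctsl fell on shMKRN1 8 or shGFP 7, as the lowest array of the group. These arrays also stood apart on the leading component. The flags of Atg16l1 and Ccpg1 fell on other arrays. For Uvrag, shMKRN1 8 (8.93) lay below the others (9.09 to 9.11), with a gap of 0.878 of the range. For Nbr1, shMKRN1 8 (10.56) lay below 10.64 to 10.65 (0.865). For Atg16l1, shMKRN1 2 (9.65) lay above 9.59 to 9.60 (0.933). For Ccpg1, shMKRN1 6 (9.16) lay above 9.04 to 9.06 (0.83). For Tax1bp1, shGFP 7 (9.79) lay below 10.02 to 10.07 (0.832), and for Ctsl, shGFP 7 (10.79) lay below 10.96 to 10.99 (0.833).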

How the results depend on the processing

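The number of autophagy genes that rose was 4 as reported. It was 9 of 34 when genes under the median level were left out, 8 with array weights, 8 with trend and robust eBayes and 0 with every probe set tested, where all genes past the threshold numbered 1595, 2757, 1549 and 378 in place of 896. The share of all genes that rose was 9.7% with array weights, 6.14% with trend and robust eBayes and 1.61% with every probe set tested, beside 3.66% as reported. Of these settings, array weights gave 1 autophagy gene that fell, Pik3c3 (-0.16, adjusted p = 0.0352). The filter tests fewer genes and the adjustment over every probe set more of them. Under the filter 12.9% of the genes tested rose, where 5.48% of the same genes did in the reported fit. Why the counts moved was not tested for any of these settings. Leaving out 1 array gave 0 to 4 autophagy genes that rose, 0 that fell, and 309 to 852 genes in all. In those fits 1.28% to 3.26% of all genes rose. The median change of the list stayed between 0.056 and 0.11 over all settings. Mkrn1 kept its call in every setting (-0.64 to -0.57). Quantile normalization, median centring, the mean of probe sets and the removal of shGFP 7 with shMKRN1 8 gave 5, 5, 4 and 4 autophagy genes that rose. The shares of all genes that rose were 4.04%, 4.39%, 3.61% and 3.55% in that order. Of the genes that did not pass, 9 changed sign under some setting, none with a reported change over 0.053. The groups share no replicate number, and the labels state no pairs. A fit with neighbouring array numbers (1 and 2, 3 and 4, 5 and 6, 7 and 8) as a replicate block, chosen after seeing the data, gave 6 autophagy genes that rose, 3 of them among the 4 reported, 0 that fell and 1446 genes in all, in both directions. In that fit 5.31% of all genes rose, beside 3.66% in the reported fit. The deviations of neighbouring arrays from their group means correlated over all genes at 0.13, -0.05, 0.26 and 0.64. The last value is for shGFP 7 and shMKRN1 8, which both stood apart on the leading component. Combinations of arrays that are not neighbours lay between -0.53 and 0.41, and shGFP 1, 3 and 5 correlated at least as well with another shMKRN1 array. Whether neighbours were handled together was not tested, as 4 arrays a group are too few for these correlations to tell. The reported fit uses no pairs because the labels state none. Depth is set by 4 arrays a group.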
